A study of Mus musculus with 8 samples.

Results

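The genes described here are the autosomal genes of 3 linked antioxidant systems in mouse brown adipose tissue (BAT), the fat depot that burns fuel to make heat. They were chosen by name alone: every glutathione S-transferase (GST), microsomal GST, glutathione peroxidase and peroxiredoxin whose symbol carries a number, together with Gclc, Gclm, Gss, Gsr, Txn1, Txn2, Txnrd1, Txnrd2, Sod1, Sod2, Sod3 and Nqo1, without pseudogenes. That gave 51 of the 49452 genes in the table. A further gene with a fitting name, Prdx4, lies on the X chromosome and was left out, since no X gene is listed above 0 in 3 of the 8 libraries.

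RNA-Seq libraries were made from BAT of 8 male C57BL/6 mice, 2 in each of 4 groups. A first pair of groups compared mice kept at 22 °C (replicates 4 and 7) with mice that spent 24 h at 4 °C (replicates 2 and 11), all 10 to 12 weeks old. Mice at 4 °C were fed for 20 h and then fasted for 4 h in the cold, and whether the mice at 22 °C were fasted is not clear from the methods. The second pair compared mice of 32 weeks after 28 weeks on a control diet (CD, replicates 6 and 8) or a high-fat diet (HFD, replicates 2 and 6). The labels call the CD food normal chow, while the methods describe a matched control diet. With 2 mice a group the spread is poorly known, and in whole tissue a lower number of cells of a type and less RNA per cell cannot be told apart.

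Cells keep hydrogen peroxide and lipid peroxides low by spending reducing power from NADPH. In the glutathione arm, Gclc and Gclm form the ligase that sets the pace of glutathione synthesis, Gss completes the molecule, glutathione peroxidases oxidize it while reducing peroxides, and Gsr returns it to the reduced form. In the thioredoxin arm, thioredoxin reductases pass electrons to thioredoxins, which recharge most peroxiredoxins. Superoxide dismutases feed both arms by turning superoxide into hydrogen peroxide, and GSTs couple glutathione to reactive lipids and foreign compounds. Brown adipocytes are rich in mitochondria, which have their own set of these proteins, among them Txn2, Txnrd2, Prdx3 and Sod2.

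Several members are selenoproteins, in which an in-frame TGA codon is read as selenocysteine at the catalytic site, and close relatives carry cysteine there. The coding stretches around that codon are shown because they separate the abundant peroxidases of BAT from the related Gpx7 and Gpx8, and because the same residue closes both thioredoxin reductases. They were read from GENCODE M21 transcripts (GRCm38), run 5′ to 3′, and have the catalytic codon in capitals.
Gpx1: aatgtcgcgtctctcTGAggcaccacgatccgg
Gpx3: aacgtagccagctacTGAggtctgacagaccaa
Gpx4: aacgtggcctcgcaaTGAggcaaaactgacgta
Gpx7: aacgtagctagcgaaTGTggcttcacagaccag
Gpx8: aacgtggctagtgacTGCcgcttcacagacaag
Txnrd1: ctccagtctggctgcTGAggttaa
Txnrd2: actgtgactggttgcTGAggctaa
The codon was TGA in Gpx1, Gpx3 and Gpx4 and also in Gpx2, and it encoded cysteine in Gpx7 and Gpx8 (TGT and TGC) and in Gpx5 and Gpx6. In Txnrd1 it was codon 612 of 613 and in Txnrd2 codon 526 of 527, the residue before the last.

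The factor Nrf2 (gene Nfe2l2) is known to drive many of these genes through antioxidant response elements, whose core was searched here as TGACNNNGC on either strand. RefSeq promoter windows (GRCm38.p6, 250 bases before to 50 after the start) were found for 44 of the 51 genes, and 8 of these genes held the core (18.2%), against 14.9% of all 18233 autosomal genes with a window. Counted by window, 13.8% of 58 windows of these genes and 13.0% of all 22337 windows held it. The 8 genes were Gsta3, Gstm5, Gstm7, Gclm, Prdx1, Mgst1, Txnrd1 and Sod1. Shown are the stretches from 170 to 21 bases upstream of the start in 3 genes commonly named as Nrf2 targets, all on the plus strand, with the match, which here reads on the opposite strand, in capitals. They lie at chr10:82859036-82859185 for Txnrd1, chr4:116685429-116685578 for Prdx1 and chr3:122245387-122245536 for Gclm. A match is a run of letters and not a measured binding site.
Txnrd1: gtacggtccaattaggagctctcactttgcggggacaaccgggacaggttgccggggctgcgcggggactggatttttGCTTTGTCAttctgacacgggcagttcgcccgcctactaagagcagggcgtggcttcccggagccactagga
Prdx1: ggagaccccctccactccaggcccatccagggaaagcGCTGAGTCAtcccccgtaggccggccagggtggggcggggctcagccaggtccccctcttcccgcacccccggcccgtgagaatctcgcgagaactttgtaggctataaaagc
Gclm: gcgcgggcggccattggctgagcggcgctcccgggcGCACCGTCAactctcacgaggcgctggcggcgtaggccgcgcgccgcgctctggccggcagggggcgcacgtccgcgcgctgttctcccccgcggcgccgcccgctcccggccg

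Levels are given in FPKM, sequenced fragments scaled to transcript length and to library size, so that levels of different genes may be set side by side. Among the 51 genes, 10 had a median over the 8 libraries above 100 FPKM, 19 between 10 and 100, 12 between 1 and 10 and 10 under 1. In every library 36 of them reached at least 1 FPKM. The highest medians belonged to Gpx3, Gpx4 and Gpx1, followed by Mgst1, Sod1 and Txnrd1. Summed over the 51 genes, the level ran from 2814 (CD replicate 8) to 5580 FPKM (CD replicate 6), 2 libraries of 1 group. The sample descriptions of these 2 libraries start differently: CD replicate 6 shares its start with the 4 libraries of the cold experiment, and CD replicate 8 shares its start with both HFD libraries. What the start stands for is not given in the labels. Diet values without CD replicate 6 are therefore the ones within 1 kind of description. They leave CD with replicate 8 alone, of the satellite-high type described below, beside HFD libraries of both types. Library type and diet are then partly confounded, and the median diet difference of the 43 genes tested moves from -0.04 to 0.30. The 7 genes Gpx2, Gpx5, Gpx6, Gsta1, Gsta2, Gstm3 and Prdx6b reached at most 0.118 FPKM. They entered no test under the main filter (0.1 FPKM in 2 or more of the fitted libraries). Genes said to have entered a test passed that filter.

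**Figure D1:**
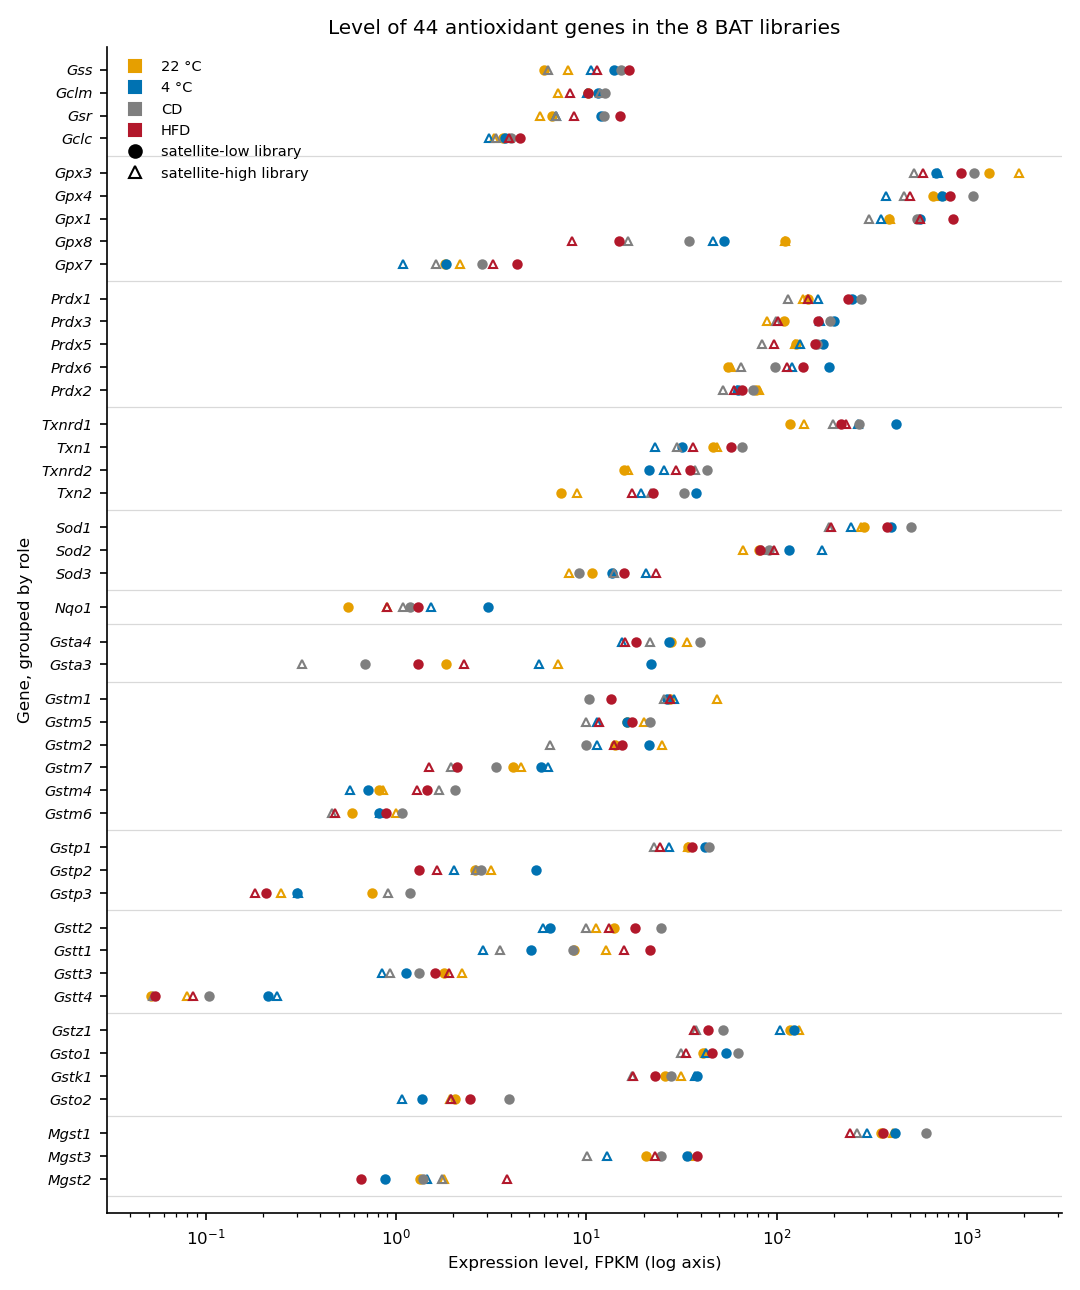
FPKM on a log axis of the 44 antioxidant genes that entered a test, grouped by role, with 1 symbol per library (colour, group; filled circle, satellite-low library; open triangle, satellite-high library). The 3 abundant peroxidases Gpx3, Gpx4 and Gpx1 lie furthest to the right, and Gpx8 spans 8.4 to 111 FPKM.

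The 2 libraries of a group also differed by type. Every group had 1 library in which the satellite-repeat gene Gm10800 exceeded 100 FPKM. These libraries, called satellite-high, were HFD replicate 2, CD replicate 8, 4 °C replicate 11 and 22 °C replicate 4. In the 4 satellite-low libraries Gm10800 was at 0.0998 to 4.13 FPKM. Of the 36 genes at 1 FPKM or more in all libraries, those lower in the satellite-high library numbered 34 on CD (94.4%, against 79.7% of 8342 coding genes at the same level), 31 on HFD (86.1%, against 84.4%), 30 at 4 °C (83.3%, against 80.7%) and 11 at 22 °C (30.6%, against 60.7%). The shares at 4 °C and on HFD were thus near those of coding genes. On CD the median gene stood at 0.553 times its level in the satellite-low library, against 0.692 times for the coding genes. At 22 °C the same ratio was 1.05 for the antioxidant genes and 0.957 for coding genes. For some differences below the values within pairs of 1 type are given, and a covariate for type was tried as an alternative. Differences between groups are on the log2(FPKM + 1) scale, which understates changes of low genes. The bulk of coding genes was itself shifted, by a median of 0.22 at 4 °C against 22 °C and 0.30 on HFD against CD.

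No antioxidant gene passed the test of cold exposure, although several lay well apart between the groups. limma called 252 of 17470 genes at an adjusted p under 0.05 with a log2 difference of at least 1 (1.44%), and 0 of the 44 antioxidant genes tested. At an unadjusted p under 0.05, 16 of the 44 (36.4%) and 24.5% of all genes tested were counted. Of the 16, 9 were higher at 4 °C (Txn2, Prdx6, Txnrd1, Sod2, Prdx3, Nqo1, Sod3, Gss and Gstt4) and 7 lower (Gstt1, Gstt2, Gstt3, Gpx3, Gpx8, Txn1 and Gsto2). Gstt4 met the filter of 0.1 FPKM only through its 4 °C libraries. Its direction thus follows from the filter, here and in the next count. Both cold libraries lay above both controls for 16 of the 44 (36.4%, against 37.9% of all genes) and below them for 11 (25.0%, against 20.6%). The median difference of the 44 was 0.01, beside 0.07 over all genes tested. Among genes that averaged 1 FPKM or more it was 0.07 for 40 antioxidant genes (20 above 0, 20 below). For 9814 coding genes at that level it was 0.22 (6957 above 0, 2857 below).

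The highest cold difference among the antioxidant genes was that of Txn2, followed by Prdx6, Txnrd1 and Gsta3. Txn2 (chr15:77915047-77929006), the mitochondrial thioredoxin, stood at 8.95 and 7.37 FPKM at 22 °C, 37.5 and 19.4 at 4 °C, 32.7 and 21.8 on CD, and 17.4 and 22.4 on HFD. Its mean was 8.16 ± 1.11 (SD, n = 2) at 22 °C and 28.5 ± 12.8 (SD, n = 2) at 4 °C, so that the 22 °C libraries were the lowest of all 8. The log2 difference was 1.62 (SE 0.34, adjusted p = 0.072 by limma), with adjusted p from 0.0245 to 0.207 over 14 alternatives. Leaving out 22 °C replicate 4, 22 °C replicate 7 or 4 °C replicate 11 brought Txn2 past the threshold, at 1.74, 1.49 and 2.08 with adjusted p = 0.0382, 0.0463 and 0.0474, while without 4 °C replicate 2 the difference was 1.16 (adjusted p = 0.12). Txn1 (chr4:57943373-57956411), its counterpart in the cytosol, lay the other way. It stood at 48.4 and 46.5 FPKM at 22 °C, 31.8 and 22.9 at 4 °C, 66.1 and 30.0 on CD, and 36.3 and 57.5 on HFD. Both cold libraries were under both controls, with a difference of -0.79 (SE 0.24, adjusted p = 0.13, from 0.0221 to 0.572 over alternatives).

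Txnrd1 (chr10:82859206-82897724), the cytosolic reductase that serves Txn1, stood at 140 and 117 FPKM at 22 °C, 426 and 269 at 4 °C, 272 and 197 on CD, and 232 and 219 on HFD. Its cold difference was 1.40 (SE 0.33, adjusted p = 0.086, from 0.0471 to 0.215 over alternatives), and the satellite-low pair gave 1.85 against 0.94 for the satellite-high pair. Txnrd2, the mitochondrial reductase, stood at 16.6 and 15.8 FPKM at 22 °C, 21.3 and 25.7 at 4 °C, 43.3 and 37.4 on CD, and 29.5 and 35.2 on HFD. Both cold libraries lay above both controls, and all 4 diet libraries lay above the cold ones. Whether counting used strand is not given in the sources used here, so the level of Txnrd2 is uncertain.

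**Figure D2:**
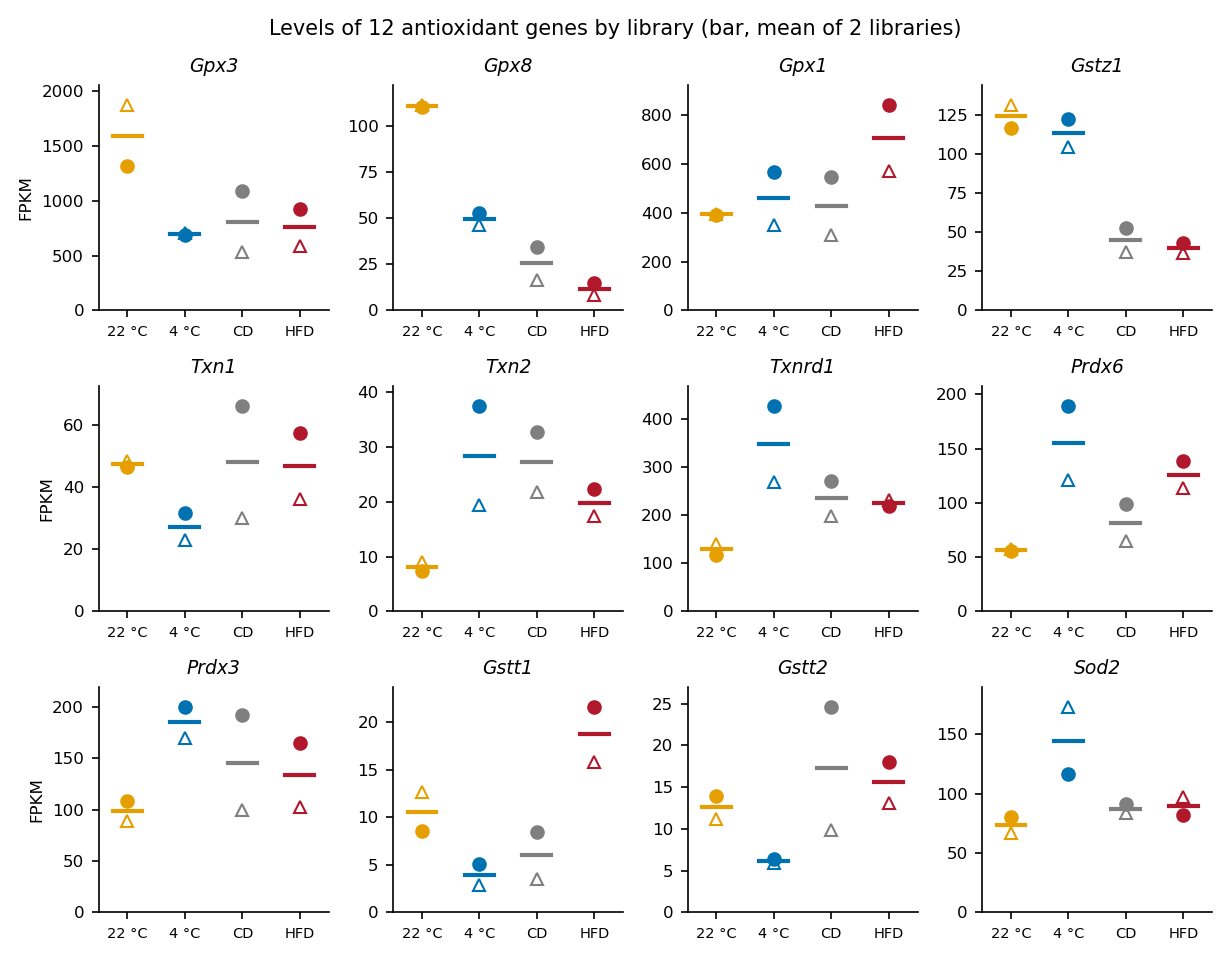
FPKM of 12 antioxidant genes in each library (filled circle, satellite-low; open triangle, satellite-high; bar, mean of the 2 libraries of a group; each axis starts at 0). Txn2 and Txn1 differ in opposite directions between 22 °C and 4 °C, Gstt1 is lowest at 4 °C and highest on HFD by group mean, and Gstz1 separates the cold experiment (105 to 132 FPKM) from the diet experiment (36.8 to 52.5 FPKM).

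Of the 5 peroxiredoxins that entered a test, Prdx1, Prdx3, Prdx5 and Prdx6 were highest at 4 °C by group mean of the deposited FPKM, and Prdx2 was not. Prdx6 (chr1:161240112-161251219), which reduces phospholipid hydroperoxides with glutathione as partner, stood at 57.6 and 55.8 FPKM at 22 °C, 189 and 121 at 4 °C, 98.6 and 65.1 on CD, and 113 and 138 on HFD. The 22 °C values lay together, at 56.7 ± 1.28 FPKM (SD, n = 2), and the 4 °C mean was 155 ± 48.1 FPKM (SD, n = 2). Its log2 difference was 1.40 (SE 0.29, adjusted p = 0.072, from 0.0282 to 0.200 over alternatives). The mitochondrial Prdx3 stood at 89.4 and 109 FPKM at 22 °C, 200 and 170 at 4 °C, 192 and 99.2 on CD, and 102 and 165 on HFD. Its difference of 0.90 (SE 0.26, adjusted p = 0.12) was nearly equal in both library types, at 0.87 and 0.92. Over 14 alternatives it ran from 0.37 to 1.04.

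Prdx1, a cytosolic enzyme, stood at 138 and 146 FPKM at 22 °C, 249 and 164 at 4 °C, 276 and 115 on CD, and 146 and 237 on HFD. Prdx5, found in mitochondria and other compartments, stood at 125 and 127 FPKM at 22 °C, 175 and 133 at 4 °C, 163 and 83.9 on CD, and 97.1 and 159 on HFD. For both, the cold libraries lay above the controls, and the spread within CD was wider than that gap. The cold differences of 0.51 for Prdx1 and 0.27 for Prdx5 turned to -0.06 and -0.27 with quantile normalization, and that of Prdx5 to -0.14 after rescaling. Prdx2, which is also abundant in red blood cells, stood at 80.9 and 78 FPKM at 22 °C, 62.6 and 61.9 at 4 °C, 75.2 and 52.1 on CD, and 59.9 and 65.8 on HFD, lower in both cold libraries than in both controls. The 5 autosomal erythroid markers found, of 8 listed, summed to 67.9 and 48.7 FPKM at 22 °C, 109 and 26.9 at 4 °C, 156 and 95.4 on CD and 189 and 384 on HFD, and their part in any value here was not tested.

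Among peroxidases, the most abundant member was lowest at 4 °C by group mean. Gpx3 (chr11:54902453-54910377), the secreted glutathione peroxidase of plasma, stood at 1871 and 1313 FPKM at 22 °C, 685 and 708 at 4 °C, 1087 and 530 on CD, and 587 and 928 on HFD. It made up 37.1% and 30.5% of the summed level of the 51 genes at 22 °C and 14.1% to 19.9% in the other 6 libraries. The cold difference was -1.17 (SE 0.37, adjusted p = 0.14, from 0.0620 to 0.637 over alternatives). Gpx8 (chr13:113042763-113046388), a peroxidase of the endoplasmic reticulum with cysteine in place of selenocysteine, stood at 111 and 110 FPKM at 22 °C, 52.8 and 46.4 at 4 °C, 34.5 and 16.5 on CD, and 8.40 and 14.8 on HFD. It had the same order in both experiments, with the 2 treated libraries below the 2 controls. Differences were -1.15 at 4 °C (SE 0.22, adjusted p = 0.063) and -1.03 on HFD (SE 0.49, adjusted p = 0.39). Without CD replicate 6 the HFD difference was -0.52 (adjusted p = 0.62). With library type as a covariate both passed the threshold, with adjusted p = 0.0381 for cold and 0.0145 for diet, within ranges of 0.0140 to 0.305 and 0.0145 to 0.923 over alternatives. In these 2 fits limma called 4.92% and 4.24% of all genes tested. With the covariate over all 8 libraries, where it called 4.32% and 1.53%, neither difference of Gpx8 passed.

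The values of Gpx1, Gpx4 and Gpx7 overlapped between 22 °C and 4 °C. Gpx1, the main cytosolic enzyme, stood at 397 and 391 FPKM at 22 °C, 566 and 352 at 4 °C, 546 and 307 on CD, and 570 and 841 on HFD. Gpx4, which reduces lipid peroxides in membranes and guards cells against ferroptosis, stood at 727 and 663 FPKM at 22 °C, 737 and 376 at 4 °C, 1083 and 467 on CD, and 505 and 812 on HFD. Its values varied more within CD than between any groups by mean. Of its transcript, 48.4% of 100-base windows also occur in the pseudogene Gpx4-ps2, so its level is uncertain. Gpx7, the close relative of Gpx8, ranged from 1.09 to 4.31 FPKM over the libraries, lowest at 4 °C replicate 11 and highest at HFD replicate 6.

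Glutathione synthesis and recycling genes were expressed at low levels throughout. Gclc, the catalytic subunit of the ligase, stood at 3.26 and 3.65 FPKM at 22 °C, 3.74 and 3.08 at 4 °C, 4.03 and 3.33 on CD, and 3.90 and 4.48 on HFD. Gclm, its modifier subunit, stood at 7.12 and 10.2 FPKM at 22 °C, 11.5 and 10.1 at 4 °C, 12.5 and 11.8 on CD, and 8.25 and 10.2 on HFD. Neither separated the cold groups. Gss, the synthetase, stood at 7.99 and 6.00 FPKM at 22 °C, 14 and 10.6 at 4 °C, 15.3 and 6.30 on CD, and 11.4 and 16.7 on HFD. Its cold difference was 0.73 (SE 0.24, adjusted p = 0.15), and 0.36 to 0.92 over alternatives. Gss overlaps Acss2 on the opposite strand, which averaged 44.3 FPKM. Gsr, the reductase, stood at 5.69 and 6.62 FPKM at 22 °C, 12 and 6.96 at 4 °C, 12.4 and 6.90 on CD, and 8.65 and 15 on HFD. The lower cold library was just above the higher control. Gsr overlaps the small nucleolar RNA gene Gm24727 on the same strand, which averaged 213 FPKM, so its level is uncertain.

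Superoxide dismutases of 3 compartments were measured. Sod2, the mitochondrial enzyme, stood at 66.7 and 80.7 FPKM at 22 °C, 116 and 173 at 4 °C, 91 and 83.6 on CD, and 97.5 and 81.9 on HFD. Its difference at 4 °C was 0.94 (SE 0.30, adjusted p = 0.14), and 0.40 to 1.23 over alternatives. Extracellular Sod3 stood at 8.09 and 10.7 FPKM at 22 °C, 13.7 and 20.5 at 4 °C, 9.16 and 14 on CD, and 23.3 and 15.8 on HFD. Its cold difference was 0.79 (SE 0.27, adjusted p = 0.16), and 0.41 to 1.06 over alternatives. Cytosolic Sod1, the most abundant of the 3, stood at 278 and 287 FPKM at 22 °C, 400 and 247 at 4 °C, 509 and 190 on CD, and 194 and 381 on HFD. Its cold libraries lay on either side of the controls. The quinone reductase Nqo1, often used as a readout of Nrf2, was near 1 FPKM and stood at 0.901 and 0.556 FPKM at 22 °C, 3.04 and 1.53 at 4 °C, 1.18 and 1.09 on CD, and 0.901 and 1.30 on HFD. Its cold difference was 0.89 (SE 0.26, adjusted p = 0.12, from 0.0612 to 0.294 over alternatives).

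Theta-class GST genes lie side by side on chromosome 10, and 3 of the 4 were lower in both cold libraries, beside 20.6% of all genes tested. The class as a whole was not tested. Gstt1 (chr10:75783813-75798584) stood at 12.7 and 8.57 FPKM at 22 °C, 5.10 and 2.86 at 4 °C, 8.48 and 3.51 on CD, and 15.9 and 21.6 on HFD. The cold difference was -1.23 (SE 0.31, adjusted p = 0.094), and without 22 °C replicate 7 it was -1.49 and past the threshold (adjusted p = 0.0204, the lowest of a range up to 0.275 over alternatives). Gstt2 (chr10:75831845-75834881) stood at 11.2 and 13.9 FPKM at 22 °C, 6.44 and 5.94 at 4 °C, 24.6 and 9.92 on CD, and 13.1 and 18.1 on HFD, with a cold difference of -0.91 (SE 0.20, adjusted p = 0.076). Gstt3 was between 0.848 and 2.23 FPKM, with a cold difference of -0.59 (SE 0.17, adjusted p = 0.11), and 23.9% of its windows are shared with the overlapping gene Gm20441. Gstt4 was barely detected, at 0.0801 and 0.0512 FPKM at 22 °C and 0.213 and 0.237 at 4 °C. It entered the cold test only through its 4 °C values. Its higher level there (log2 difference 0.20, ratio of group means 3.43) follows from the filter and is described only.

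Alpha-, mu- and pi-class GSTs held no gene past the test. Gsta3, an alpha-class enzyme, stood at 7.11 and 1.82 FPKM at 22 °C, 21.9 and 5.67 at 4 °C, 0.687 and 0.320 on CD, and 2.27 and 1.30 on HFD. Its cold difference of 1.37 (SE 0.74, adjusted p = 0.31) was 3.02 in the satellite-low pair and -0.28 in the satellite-high pair. Over alternatives the difference ran from 0.48 to 2.26, and without 22 °C replicate 4 it was 2.13. Gsta4, which clears the lipid aldehyde hydroxynonenal, stood at 33.8 and 27.8 FPKM at 22 °C, 27.2 and 15.5 at 4 °C, 39.5 and 21.7 on CD, and 15.9 and 18.2 on HFD. It was lower in both cold libraries than in both controls. Gstm1 stood at 48.6 and 27.5 FPKM at 22 °C, 26.7 and 29 at 4 °C, 10.3 and 25.5 on CD, and 27.7 and 13.5 on HFD. Gstm2 stood at 25 and 14.1 FPKM at 22 °C, 21.4 and 11.4 at 4 °C, 9.98 and 6.42 on CD, and 14 and 15.4 on HFD. In both mu-class genes the cold values overlapped the controls. The mu-class genes Gstm4, Gstm5, Gstm6 and Gstm7 lay between 0.461 and 21.6 FPKM. Gstp1 stood at 34.4 and 34.2 FPKM at 22 °C, 41.8 and 27.4 at 4 °C, 44 and 22.6 on CD, and 24.5 and 36 on HFD. Gstp1 shares 52.8% of its windows with Gstp2, which stood at 3.14 and 2.59 FPKM at 22 °C, 5.43 and 2.02 at 4 °C, 2.79 and 2.64 on CD, and 1.64 and 1.32 on HFD, so that both levels are uncertain.

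Omega, kappa and microsomal enzymes showed no member past the test. Gsto1 stood at 41.9 and 41.2 FPKM at 22 °C, 54.4 and 42.7 at 4 °C, 62.6 and 31.6 on CD, and 33.6 and 45.9 on HFD, so that both cold libraries lay above the controls, 1 of them barely, but its difference of 0.21 was below 0 under all 3 other scalings (-0.32 to -0.04). Gstk1, located in mitochondria and peroxisomes, stood at 31.5 and 25.8 FPKM at 22 °C, 38.4 and 37.3 at 4 °C, 27.8 and 17.4 on CD, and 17.6 and 23.1 on HFD, higher in both cold libraries, with a difference of 0.39 that turned to -0.07 with quantile normalization and to -0.01 after rescaling. Mgst1, the membrane-bound enzyme of endoplasmic reticulum and outer mitochondrial membrane, stood at 407 and 354 FPKM at 22 °C, 421 and 298 at 4 °C, 609 and 265 on CD, and 243 and 364 on HFD. Mgst3 stood at 34.9 and 20.6 FPKM at 22 °C, 33.6 and 12.8 at 4 °C, 24.7 and 10.1 on CD, and 23 and 38.3 on HFD, with its satellite-high library the lower one in every group except 22 °C. Gsto2 and Mgst2 stayed between 0.655 and 3.92 FPKM.

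**Figure D3:**
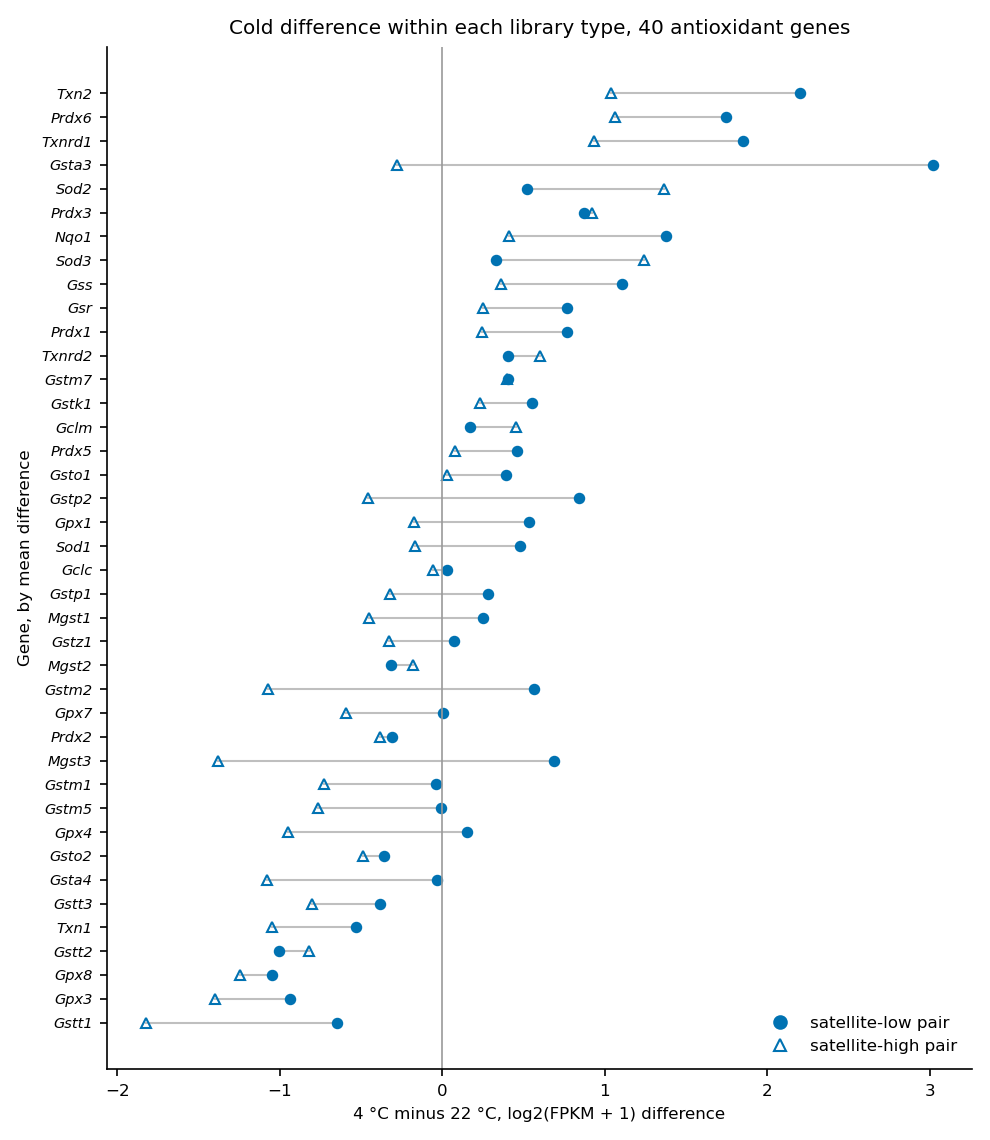
Difference between 4 °C and 22 °C in log2(FPKM + 1) within the satellite-low pair (4 °C replicate 2 minus 22 °C replicate 7, filled circles) and within the satellite-high pair (4 °C replicate 11 minus 22 °C replicate 4, open triangles), for the 40 antioxidant genes that averaged 1 FPKM or more over the 4 libraries. Both pairs were above 0 for 16 genes, both below 0 for 12, and the pairs differed in sign for 12, with the widest gap for Gsta3.

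Skeletal muscle markers differed with cold exposure in the same libraries, with none past the test. Of 12 listed muscle markers 11 were found, none of them at 0 in all libraries, and they summed to 531 and 109 FPKM at 22 °C, 4518 and 1916 at 4 °C, 573 and 1465 on CD and 177 and 16.3 on HFD. The sums of the endothelial, brown adipocyte and general adipocyte markers were also higher in both cold libraries than in both controls. The lymphoid sum was lower, at 4.79 and 5.09 FPKM at 22 °C and 4.08 and 2.74 at 4 °C. All 9 lymphoid markers tested and all 6 proliferation markers lay below 0 in cold. Of the 12 brown adipocyte markers 3 rose at 4 °C (beside 1.44% of all genes tested), Dio2 and Ppargc1a, called in 11 of 14 alternatives, and Elovl3, called in 10. All 3 calls were lost with no filter, with no trend and without 4 °C replicate 2, and that of Elovl3 also without 4 °C replicate 11. In cold 2 of 12 brown adipocyte, 2 of 8 general adipocyte and 1 of 8 endothelial markers lay below 0. These included Lep (-2.13, SE 0.35, adjusted p = 0.053 by limma), Adipoq (-0.78, adjusted p = 0.24), Prdm16 (-0.68, adjusted p = 0.22) and Tek (-0.49, adjusted p = 0.20). The part of these cells in the antioxidant values was not tested. The tissue label itself was borne by its markers, with all 12 brown adipocyte genes detected and Ucp1, the uncoupling protein that makes heat, at 699 to 6462 FPKM.

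No antioxidant gene passed the test of high-fat feeding either. limma called 12 of 17535 genes (0.0684%) and 0 of the 43 antioxidant genes tested. At an unadjusted p under 0.05, 3 of the 43 (6.98%) and 14.4% of all genes were counted, namely Gstt1 and Gsta3, higher on HFD, and Gstp3, lower. Both HFD libraries lay above both CD libraries for 8 of the 43 (18.6%, against 39.9% of all genes) and below them for 7 (16.3%, against 5.8%). The median difference was -0.04, beside 0.18 over all genes tested. Among genes that averaged 1 FPKM or more it was -0.03 for 41 antioxidant genes (19 above 0, 22 below). For 9874 coding genes at that level it was 0.30 (8212 above 0, 1662 below). Standard errors were wider than for cold, with a median over the genes of 0.46 against 0.26.

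Gstt1 had the highest diet difference, in the direction opposite to cold. Both HFD libraries (15.9 and 21.6 FPKM) were above the CD libraries (8.48 and 3.51 FPKM) and above all other libraries. The difference was 1.58 (SE 0.45, adjusted p = 0.20, from 0.00169 to 0.718 over alternatives), 1.25 in the satellite-low pair and 1.90 in the satellite-high pair. With library type as a covariate it passed the threshold (adjusted p = 0.00786), and also without CD replicate 6 (2.11, adjusted p = 0.00169), where limma called 4.23% of all genes tested. Gsta3 was next, at 0.88 (SE 0.24, adjusted p = 0.19) from CD levels under 1 FPKM, and it too passed without CD replicate 6 (1.06, adjusted p = 0.00801, within a range up to 0.649). Mgst3 and Gstm2 followed with 0.86 (SE 0.52, adjusted p = 0.51) and 0.80 (SE 0.37, adjusted p = 0.38), and without CD replicate 6 they stood at 1.47 and 1.08. In every value without CD replicate 6, CD rests on its satellite-high library alone, beside 1 HFD library of each type.

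On the lower side, among genes that averaged at least 1 FPKM, Gpx8 was followed by Gsta4 at -0.75 (SE 0.44, adjusted p = 0.49), Gstp2 at -0.59 (SE 0.25, adjusted p = 0.35) and Mgst1 at -0.43 (SE 0.68, adjusted p = 0.81). The values of Gsta4 and Gstp2 on HFD lay below both CD values, whereas those of Mgst1 overlapped, and without CD replicate 6 the difference was -0.33 for Gsta4 (adjusted p = 0.77) and 0.17 for Mgst1 (adjusted p = 0.93). Gstp3, a low-level gene of the pi class named here after its values were seen, read 1.18 and 0.909 FPKM on CD and 0.180 and 0.207 on HFD. Its difference was -0.77 (SE 0.13, adjusted p = 0.13 by limma), with the lowest unadjusted p of the 43 genes (0.000586). Its adjusted p ran from 3.44e-06 to 0.534 over 13 alternatives and was under 0.05 in 4 of them, in none of which the log2 difference reached the threshold of 1. Of the abundant genes of hydrogen peroxide removal, Prdx1, Prdx3 and Prdx5 had HFD and CD values that overlapped, while Gpx1 stood at 570 and 841 FPKM on HFD, above 546 and 307 on CD.

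Markers of other cell types differed between the diet groups as well, with none at 0 in all libraries. The 11 macrophage markers summed to 152 and 60.2 FPKM on CD and 337 and 364 on HFD. The 6 fibroblast markers summed to 82.5 and 96.1 FPKM on CD and 223 and 200 on HFD, and the 6 proliferation markers to 18.5 and 7.64 on CD and 23.1 and 29.6 on HFD. Endothelial, lymphoid and erythroid sums were likewise higher in both HFD libraries than in both CD libraries, and the muscle sum was lower. No marker of these 7 lists passed the test. Brown adipocyte sums overlapped, at 8586 and 5026 FPKM on CD and 4248 and 6520 on HFD. Of the 12 brown adipocyte markers 8 lay below 0 on HFD and 4 above, with none called. Elovl3 was furthest below, at -3.14 (SE 0.50, adjusted p = 0.12 by limma). Among 8 general adipocyte markers 1 rose on HFD (beside 0.0684% of all genes tested), the hormone gene Lep (5.005, SE 0.55, adjusted p = 0.0425, called in 9 of 14 alternatives). Its call was lost with quantile normalization, after rescaling, with pseudocount 0.1, with no filter and with no trend. The part of these cells in the antioxidant values was not tested.

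**Figure D4:**
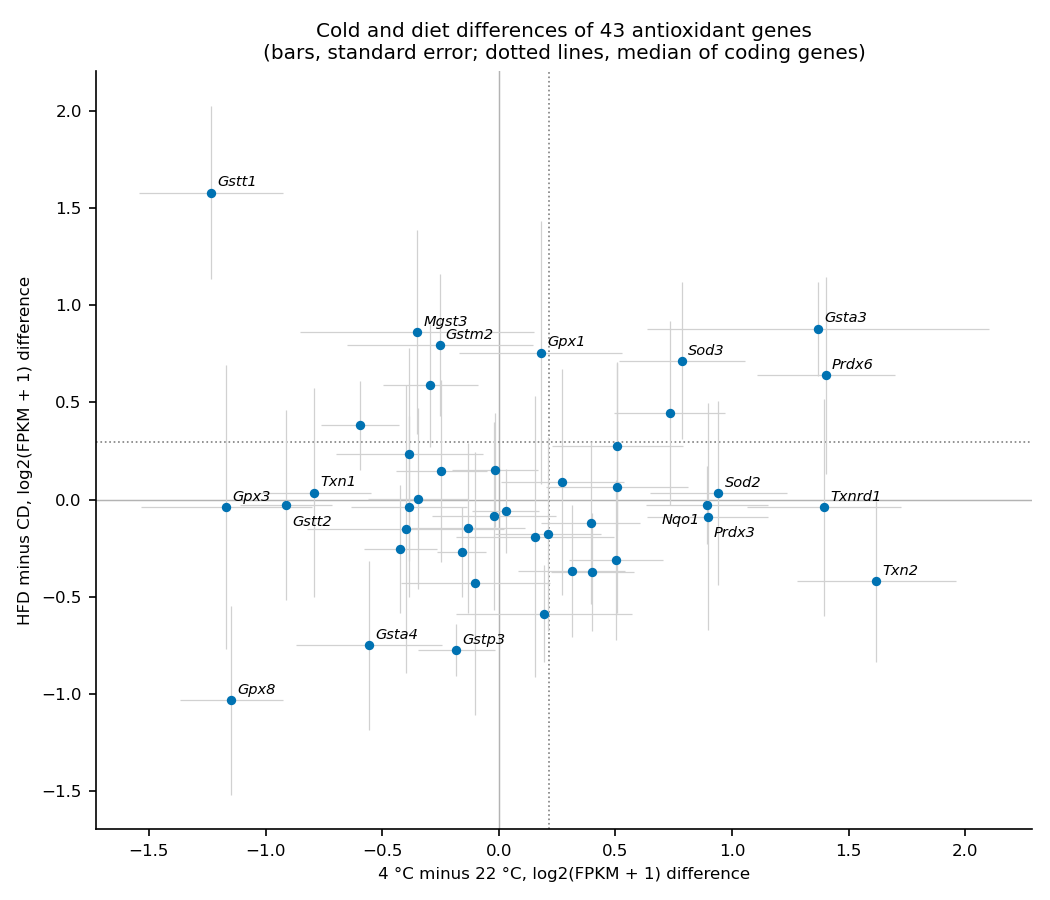
Differences in log2(FPKM + 1) of the 43 antioxidant genes tested in both comparisons, 4 °C minus 22 °C on the horizontal axis and HFD minus CD on the vertical axis, with standard errors as bars and the median of coding genes (0.22 and 0.30) as dotted lines. Gstt1 lies alone at the upper left (-1.23 and 1.58) and Gpx8 at the lower left (-1.15 and -1.03).

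Whether the cold and the diet responses differ was tested directly over all 8 libraries, as the cold difference minus the diet difference. limma called 196 of 18894 genes (1.04%) and 0 of 44 antioxidant genes, while 9 of the 44 (20.5%) and 18.4% of all genes had an unadjusted p under 0.05. Gstt1 came first, with -2.81 (SE 0.59, adjusted p = 0.067, from 0.0247 to 0.215 over 16 alternatives), and Txn2 second, with 2.04 (SE 0.52, adjusted p = 0.10, from 0.0303 to 0.276). Gstt1 passed the threshold without CD replicate 6 (-3.35, adjusted p = 0.0295). Gstt3, Gpx7, Gstt4, Nqo1, Gstp3, Txnrd1 and Txnrd2 made up the rest of the 9. Of these, Gstt4 reached the filter of 0.1 FPKM only in both 4 °C libraries and CD replicate 6, and is described only.

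Some genes separated the cold experiment from the diet experiment. In all 4 libraries of the cold experiment, Gstz1, Gpx8 and Gstm7 exceeded all 4 libraries of the diet experiment, which makes 3 of 44 (6.82%, against 4.38% of all genes). Txnrd2 and Gstm4 lay below in the same way (4.55%, against 1.85%). Gstz1 (chr12:87147707-87164721), which also acts in tyrosine breakdown as maleylacetoacetate isomerase, stood at 132 and 117 FPKM at 22 °C, 123 and 105 at 4 °C, 52.5 and 37.5 on CD, and 36.8 and 43.4 on HFD. Gstm7 lay at 4.12 to 6.28 FPKM in the cold experiment and at 1.49 to 3.37 FPKM in the diet experiment. Age, food and the experiment itself cannot be told apart in this contrast, and it has no test.

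Related genes outside the set were read from lists written with the design. Of 9 Nrf2 regulators, 2 rose at 4 °C (beside 1.44% of all genes tested called in either direction), the small Maf proteins Maff (2.63, SE 0.22, adjusted p = 0.0207) and Mafk (1.35, SE 0.19, adjusted p = 0.0466), which pair with Nrf2 or its competitors on DNA. Nfe2l2 itself differed by 0.19 (SE 0.23, adjusted p = 0.65). Of 21 further glutathione genes tested, 1 rose at 4 °C, Slc3a2 (1.97, SE 0.27, adjusted p = 0.0442), the heavy chain of amino acid transporters, beside the same 1.44%. Over 14 alternatives Maff and Slc3a2 were called in 11 and Mafk in 9, with adjusted p up to 0.130, 0.170 and 0.170. None of the 3 was called with no filter, with no trend or without 4 °C replicate 2, settings in which limma called at most 1 gene of all tested, and Mafk was also not called without 22 °C replicate 4 or after rescaling. The 2 genes of this list with the highest differences, Cth and Chac1, which make cysteine and degrade glutathione, did not pass (2.50, adjusted p = 0.062, and 2.43, adjusted p = 0.056).

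The other lists held no called gene in cold, at 0 of 16 further Nrf2 targets, 0 of 19 thioredoxin-related genes, 0 of 16 genes of NADPH supply, 0 of 16 other antioxidant genes and 0 of 13 selenoprotein genes. By limma the unadjusted p was under 0.05 for 5, 5, 5, 9 and 1 genes of these lists in that order, beside 24.5% of all genes tested. Only the 9 of 16 other antioxidant genes lay well above that share, with 7 higher at 4 °C and 2 lower, Blvrb (-1.02, SE 0.27, adjusted p = 0.10) and Ccs (-0.71, SE 0.27, adjusted p = 0.19). Of the 16 further Nrf2 targets 9 lay below 0, with a median of -0.06. Heme oxygenase Hmox1 differed by 2.22 (SE 0.64, adjusted p = 0.12) and Srxn1, which repairs overoxidized peroxiredoxins, by 1.59 (SE 0.32, adjusted p = 0.066). The metallothionein Mt2 differed by 2.17 (SE 0.39, adjusted p = 0.059) and Sesn1 by 1.35 (SE 0.34, adjusted p = 0.098). Mitochondrial Mthfd2 and cytosolic Aldh1l1, both folate enzymes tied to NADPH, differed by 2.01 (SE 0.46, adjusted p = 0.084) and 1.53 (SE 0.29, adjusted p = 0.061). Among selenoprotein genes, Selenot was highest at 1.12 (SE 0.51, adjusted p = 0.25), followed by Eefsec at 0.73 (SE 0.23, adjusted p = 0.14).

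On HFD none of the 7 lists held a called gene. The lists had 9 to 21 genes tested, of which 0 to 3 a list had an unadjusted p under 0.05 by limma, beside 14.4% of all genes tested. Txnrd3, the third thioredoxin reductase gene, had the highest diet difference of these lists at 2.35 (SE 0.45, adjusted p = 0.14), with 14.2 and 7.07 FPKM on CD and 59.6 and 51.4 FPKM on HFD. Its 4 other libraries lay between 27.8 and 61.3 FPKM. Hmox1 differed by 1.55 (SE 0.64, adjusted p = 0.34), Ucp2 by 1.53 (SE 0.32, adjusted p = 0.15), and Me1, a source of cytosolic NADPH, by -1.11 (SE 0.48, adjusted p = 0.35). Idh2, a mitochondrial isocitrate dehydrogenase that also makes NADPH, differed by 0.99 (SE 0.56, adjusted p = 0.48), Mafk by 0.90 (SE 0.33, adjusted p = 0.28) and Maff by 0.75 (SE 0.35, adjusted p = 0.39). Txndc5 (0.73), Selenom (0.69), Abcc1 (0.58), Chac1 (-0.54) and Eefsec (0.38) completed the 2 genes furthest from 0 in each list.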

How the data were processed

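Genes were chosen by the name rule above, and the rule, the gene lists and the tests were chosen with earlier results of these data known. The deposited values are FPKM, which the authors made for each library separately with TopHat2 2.0.10 on GRCm38 and Cufflinks (2.2.1 in the submitters' processing notes) on Ensembl genes after ribosomal RNA depletion and paired-end directional sequencing. The design planned a count model if counts were present, and the FPKM test applied. Of 45146 autosomal genes, those that reached 0.1 FPKM in 2 or more of the fitted libraries were analysed as log2(FPKM + 1) in limma 3.58.1 (R 4.3.3, eBayes with trend), tested on simulated data first. P-values are two-sided, Benjamini-Hochberg adjusted over all genes tested, and called under 0.05 with a log2 difference of at least 1. They rest on a spread that limma takes partly from the 2 mice a group and partly from its trend over all genes tested. The 2 mice of a group also differ in library type. An exact permutation test of 2 against 2 cannot go below 0.333.

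Depth is not stated. Low values of genes with 1 transcript and 1 exon fell on steps (97.7% to 98.7% whole within 0.1 fragment) that put 1 fragment on 2000 bases at 0.00439 to 0.00603 FPKM and 3 fragments at 0.0132 to 0.0181 FPKM. Such steps cover counting error only. Genes were named with all values if called, among the 4 highest or 4 lowest differences of a comparison at a mean of at least 1 FPKM, or on a list of central members, and sequences and shared windows came from GENCODE M21 and RefSeq. All 51 genes matched GENCODE M21. Of the 21 selenoprotein names listed, 14 were found under the symbol listed. Alternatives changed normalization, pseudocount (0.1), filter, covariates, libraries and call rule.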

Additional observations from a re-analysis of the deposited data

How the results depend on the processing

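The count of antioxidant genes past the threshold was 0 in all 3 tests and did not stay 0 under every alternative, and the share of all genes called moved too. For cold it was 7 of 44 with median centring (Txn2, Prdx6 and Txnrd1 higher, Gstt1, Gstt2, Gpx8 and Txn1 lower, beside 4.32% of all genes). It was 3 with quantile normalization (2.80%) and 4 of 45 after rescaling to the autosomal coding sum without Ucp1 (3.24%). With library type as a covariate it was 3 (4.92%), and 2 with that covariate over all 8 libraries (4.32%). Rescaling also put 45 genes in the test of the difference between responses. Leaving out 1 library gave 0 to 2 (0.00595% to 4.55%). For diet it was 2 of 43 with the covariate (Gstt1 and Gpx8), or 4.65% beside 4.24% of all genes, and 0 to 2 on leaving out 1 library, the 2 being Gstt1 and Gsta3 without CD replicate 6 (4.65% beside 4.23%). For the difference between responses it was 2 with quantile normalization (2.17%), 2 with median centring (2.46%), 4 with rescaling (4.71%), 2 with the covariate (3.17%), and 0 to 1 without 1 library (0.0325% to 2.87%, the 1 falling without CD replicate 6 at 2.87%). It was 0 with pseudocount 0.1 (beside 2.72% of all genes for cold, 0.0855% for diet and 1.01% for the difference), with a 1 FPKM filter (4.84%, 0.218% and 1.66%), with no fold threshold (316, 15 and 243 genes called), and with all 8 libraries in 1 fit for cold and diet (1.92% and 0.132%). For diet it was also 0 with the covariate over all 8 libraries (1.53%), where Gstt1 and Gpx8 no longer passed. Where few genes of any kind were called, as for diet, a 0 says little. With no filter or no trend limma called 0 genes of all tested for cold and for diet (4689 and 4170, and 2490 and 2348, at an unadjusted p under 0.05), as did quantile normalization and rescaling for diet (2126 and 2343), so the 0 antioxidant genes there say nothing of stability. Where scaling or a covariate added calls, the cause was not tested.

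Of 26 single-gene differences under 367 alternatives, 329 kept direction and side of the threshold, 37 moved past it, and 1 turned, Mgst1 on HFD without CD replicate 6 (0.17, in a range from -1.03 on leaving out 1 library). The 26 hold the 4 highest and 4 lowest differences of cold and of diet at a mean of at least 1 FPKM. None of these 26 was turned by a scaling, but they leave out smaller cold differences printed above that were, such as those of Prdx1, Prdx5, Gsto1 and Gstk1. Of all antioxidant genes tested, quantile normalization, median centring and rescaling turned 9, 6 and 8 of 44 for cold, 10, 9 and 5 of 43 for diet, and 9, 0 and 6 of 44 for the difference between responses. The turned cold differences were at most 0.51 in size, those of Gclm, Gpx1, Gstk1, Gstm6, Gsto1, Gstp2, Gstt4, Prdx1, Prdx5 and Sod1. Median centring moves every gene by 1 constant, which by itself turns a gene as low as Gstt4. No paired analysis was possible because 22 °C and 4 °C share no replicate number and CD and HFD share only 1, but each group has 1 library of each type, so the covariate above pairs the libraries by type. Where a group was left with 1 library, its spread was assumed to equal that of the others. Members near or under 0.1 FPKM rest on few fragments and are described only. They include Gstt4, although the counts of tested genes hold it.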
